A study of Mus musculus with 2 samples.

Results

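Mir675 and Mir483 are the microRNA (miRNA) genes of the imprinted H19-Igf2 locus, and both were measured by small RNA sequencing of embryonic mouse kidney. They were found by matching the Ensembl identifiers of the count tables to GENCODE symbols, and they are 2 of the 1973 miRNA genes counted. The study had 1 group, kidneys of B6NCrl embryos at 14.5 days of gestation with no treatment or engineered allele named in the labels, in 2 biological replicates of 2 kidneys each. The labels speak of 1 pup per replicate, with different collection days, but also of pooled sexes and a single donor identifier, so the number of embryos behind each library is not settled. Each SD therefore describes how far these 2 libraries lie apart, a distance that may be technical in part.

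Imprinted genes are expressed from the copy inherited from only 1 of the parents. At this locus H19, a long non-coding RNA, is expressed from the maternal copy, and Igf2, a fetal growth factor, from the paternal copy. The miRNA miR-675 is cut from the H19 transcript itself and is known to repress Igf1r, the receptor through which Igf2 promotes growth, while miR-483 lies within Igf2. Loss of imprinting at Igf2 is a well-known event in Wilms tumour, a childhood tumour of the developing kidney, in which miR-483 has also been described as abundant.

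The hairpins and mature arms are shown because the 2 genes, although neighbours, encode unrelated miRNAs, which bears on what the counts can hold. In the hairpins, capitals mark the mature arms, the 5p arm first; sequences are from RefSeq on GRCm38.p6, the assembly also called mm10, written 5′ to 3′.
Mir675 hairpin, chr7:142577064-142577147, minus strand: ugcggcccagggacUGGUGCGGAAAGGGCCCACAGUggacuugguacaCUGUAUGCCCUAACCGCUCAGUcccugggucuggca
Mir483 hairpin, chr7:142654924-142654996, minus strand: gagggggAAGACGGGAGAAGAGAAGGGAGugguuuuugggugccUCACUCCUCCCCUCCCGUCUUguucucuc

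In the mature arms, capitals mark the seed, bases 2 to 8, through which a miRNA mainly pairs with its target mRNAs.
miR-675-5p: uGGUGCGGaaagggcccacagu
miR-675-3p: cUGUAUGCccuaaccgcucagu
miR-483-5p: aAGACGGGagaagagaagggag
miR-483-3p: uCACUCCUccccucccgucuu

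The 4 seeds differed from one another, and none was found in any other gene's arm among the 1679 mature mouse miRNAs of the table. A seed found in a single gene was common, since 1211 of these arms (72.1%) had one. Neither hairpin shared a stretch of 21 bases with another of the 1005 hairpins. The mature letters of miR-675 occurred in GENCODE transcripts of H19 and Mir675 only, and those of miR-483 in Mir483 only, among 141767 transcripts searched on either strand. Introns and intergenic sequence were not searched. Reads that mapped to several places were left out of all genes by the authors. For miR-483 no other annotated transcript held the full letters of an arm. For miR-675 those of H19 did, so the counts cannot tell fragments of H19 RNA there from the mature miRNA. Mir483 lies in an intron of Igf2, so its counts likewise cannot tell fragments of unspliced Igf2 RNA from the mature miRNA.

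The arms of miR-483 stood at the ends of the range of purine content. Of the bases of miR-483-5p, 95.5% were purines, the highest share of all 1679 arms, against a median of 50%. Its partner miR-483-3p had 9.52% purines, and only 2 arms had fewer. The arms of miR-675 had 63.6% (5p) and 36.4% (3p). GC content was 63.1% in the Mir675 hairpin and 58.9% in the Mir483 hairpin, against a median of 51.7% over all hairpins. The predicted fold of the Mir675 hairpin had a free energy of -0.67 kcal/mol per base, and 2.19% of hairpins had a lower one. For the Mir483 hairpin it was -0.46 kcal/mol per base, with 25.6% of hairpins lower and a median of -0.41.

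Both genes lie on the minus strand of chromosome 7, 77.8 kb apart. Mir675 (ENSMUSG00000076275.1, 84 bases) lies inside H19 (142575529 to 142578143). It fell within an exon in 3 of the 7 annotated H19 transcripts, among them H19-202, whose exon 1 of 1315 bases holds it. In 1 further transcript it lay in an intron, and 3 others start downstream of it. Mir483 (ENSMUSG00000070140.1, 73 bases) lies inside Igf2 (142650766 to 142666816). In 7 of the 9 annotated Igf2 transcripts it fell within the same intron of 1205 bases (142654449 to 142655653), as it did in the overlapping gene Gm49394, and the other 2 did not span it. The antisense gene Igf2os begins beyond Mir483 and does not overlap it. The nearest other counted miRNA genes were Mir3104, 585 kb from Mir675 with no count in either library, and Mir7064, 916 kb from Mir483 with 10 and 12 counts.

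**Figure D1:**
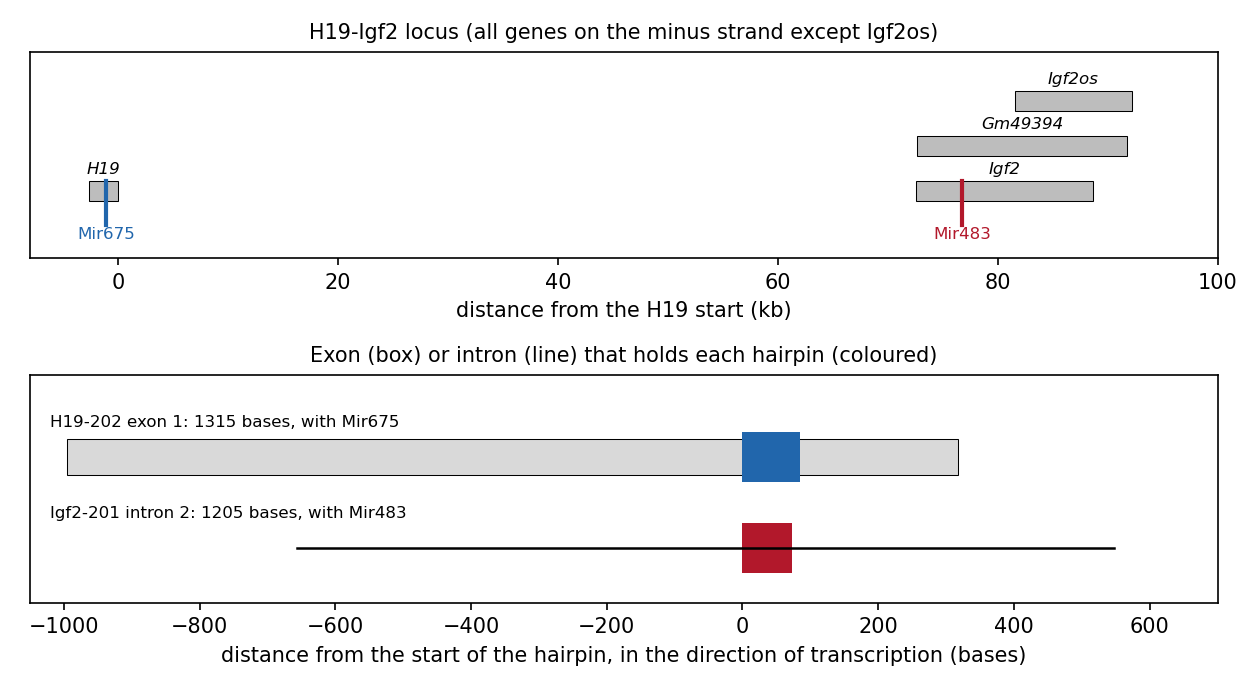
Top, the H19-Igf2 locus along the distance from the H19 start in kb, with genes as grey boxes and the miRNA genes as coloured lines. Bottom, the exon of H19-202 (box, 1315 bases) that holds Mir675 and the intron of Igf2-201 (line, 1205 bases) that holds Mir483, along the distance in bases from each hairpin's start; Mir675 sits in an exon and Mir483 in an intron.

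Mir483 was the abundant member of the pair and Mir675 the scarce one, in both libraries. The unit is CPM, counts per 1000000 own-strand counts of all miRNA genes, of which there were 5202588 in replicate 1 and 3683978 in replicate 2. A gene with at least 10 counts in each library is called detected, which 345 genes were, both members among them. Because the reads carry no molecular identifiers and are not independent molecules, the intervals given here, all 95% and exact, cover counting error only. They are Clopper-Pearson intervals, except that for the change of the ratio between the libraries, which is the conditional interval of an odds ratio. The counts are per hairpin, so reads of the 5p and 3p arms cannot be told apart.

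Mir483 had 11307 counts in replicate 1, or 2173 CPM (interval 2134 to 2214). In replicate 2 it had 5787 counts, or 1571 CPM (1531 to 1612). The intervals did not overlap, and replicate 1 was the higher. Its mean was 1872 CPM ± 426 (SD, n = 2), a coefficient of variation of 22.8%.

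Mir675 had 439 counts in replicate 1, or 84.4 CPM (interval 76.7 to 92.7), and 293 counts in replicate 2, or 79.5 CPM (70.7 to 89.2). These intervals overlapped. Its mean was 82.0 CPM ± 3.43 (SD, n = 2), a coefficient of variation of 4.18%. Neither gene had a count on the opposite strand in either library, a limit of 0.577 CPM for replicate 1 and 0.814 CPM for replicate 2 (3 counts). The rate of opposite-strand counts over all miRNA genes was 1.93% and 1.80%.

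Among the detected genes Mir483 ranked 63 by mean CPM and stood 16.4 times above their median of 114 CPM. It was above the upper quartile of 1059 CPM. Mir675 ranked 186 and stood at 0.719 times the median, between the lower quartile of 18.7 CPM and the median. Within the libraries the rank of Mir675 was 189 in both, and that of Mir483 was 59 in replicate 1 and 71 in replicate 2. The 2 genes together made up 0.226% of counts in replicate 1 and 0.165% in replicate 2.

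**Figure D2:**
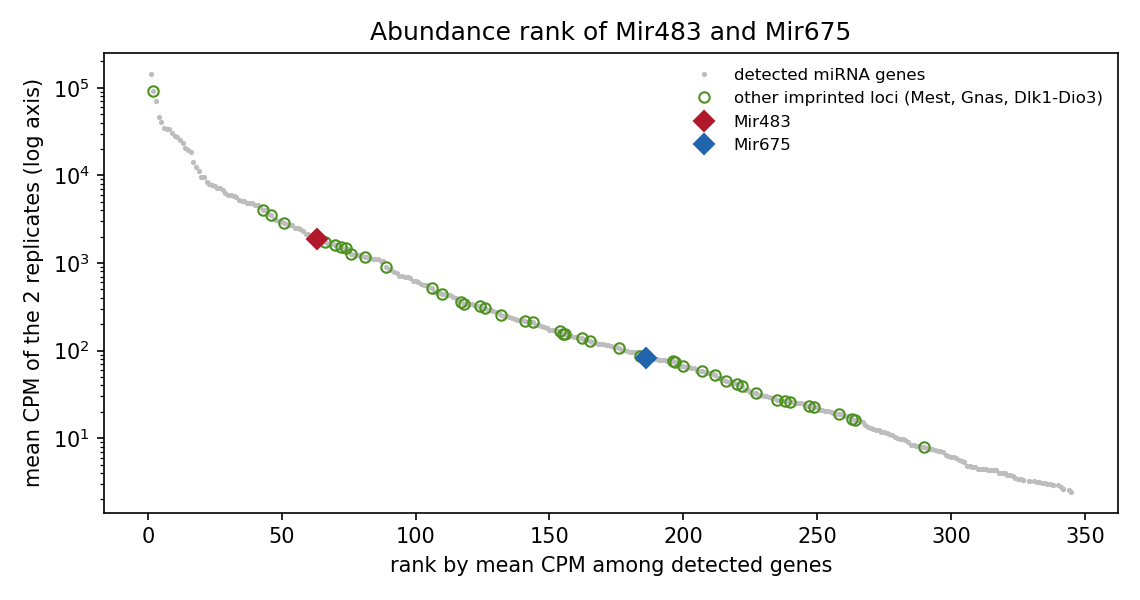
Mean CPM of the 2 replicates (log axis) against rank for the 345 detected miRNA genes (grey points), with detected genes of the Mest, Gnas and Dlk1-Dio3 loci as open circles. Mir483 stands at rank 63 and Mir675 at rank 186.

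For each count of Mir675 there were 25.8 counts of Mir483 in replicate 1 (interval 23.4 to 28.4) and 19.8 in replicate 2 (17.6 to 22.3). Mir675 thus held 3.74% of the pair's counts in replicate 1 (interval 3.40 to 4.10) and 4.82% in replicate 2 (4.29 to 5.39). On the log2 scale the ratio was 4.69 and 4.30, a mean of 4.50 ± 0.27 (SD, n = 2), so the gap between the genes was many times the spread between the libraries. Per base of hairpin, the ratio was 29.6 in replicate 1 and 22.7 in replicate 2. Library size cancels in these ratios, but they compare read counts, and the efficiency with which each miRNA was captured in a library was not measured.

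The ratio was 1.30 times higher in replicate 1. Its log2 change from replicate 1 to replicate 2 was -0.38 (interval -0.60 to -0.16), and Fisher's exact test (two-sided) on the 4 counts gave p = 7.04e-04. This test sets 1 library against the other and knows only counting error. The libraries differed by more than that over the table as a whole, as described next.

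**Figure D3:**
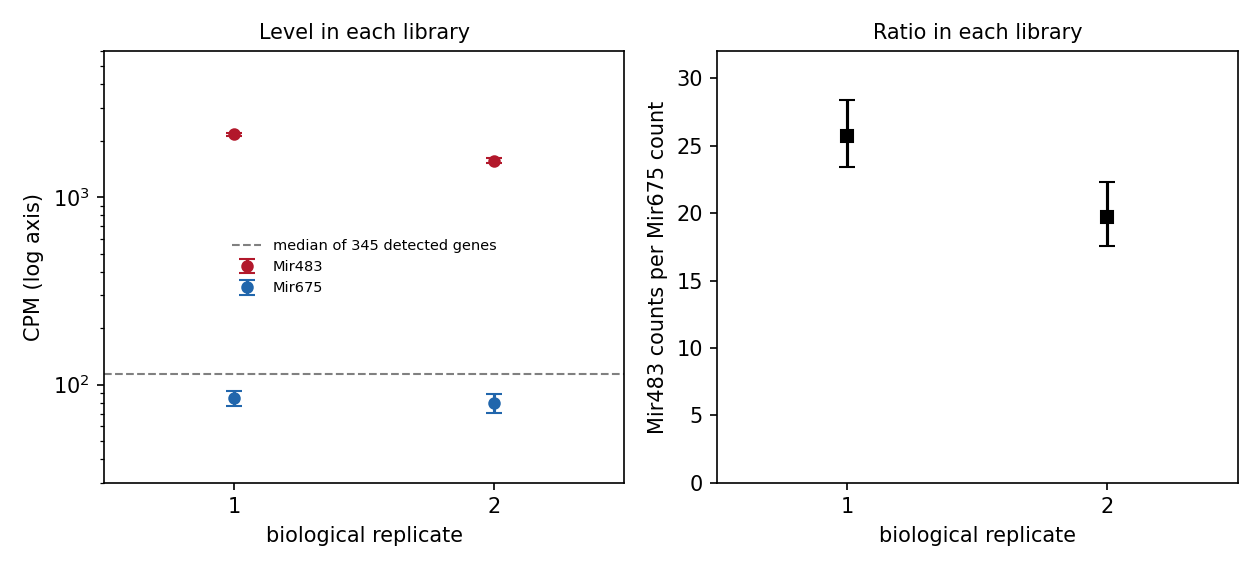
Left, CPM (log axis) of Mir483 and Mir675 in each library; right, counts of Mir483 per count of Mir675. Bars are 95% exact intervals for counting error, and the dashed line is the median of the 345 detected genes, 114 CPM. Mir483 lies above that line and Mir675 below it in both libraries, and the ratio is 25.8 in replicate 1 and 19.8 in replicate 2.

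Taken singly, Mir483 was lower in replicate 2 beyond counting error and Mir675 was not. Each detected gene was compared between the libraries with a two-sided exact binomial test, with Benjamini-Hochberg adjustment over all 345. For Mir483 the log2 ratio, replicate 2 over replicate 1, was -0.46 (interval -0.51 to -0.42), with an adjusted p of 9.00e-90 in this exact binomial test. Mir675 had a log2 ratio of -0.08 (interval -0.30 to 0.13) and an adjusted p of 0.599. At its lower count the interval was wider than that of Mir483, and it held 0 as well as ratios down to -0.30.

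Passing this test was common. It was passed by 53.9% of detected genes in either direction and by 27.2% as lower in replicate 2, so 1 of 2 members passing is near the background. Where the log2 ratio also had to reach 1 in size, 3.19% of genes were called and neither member was. In size, the ratio of Mir483 exceeded that of 76.5% of detected genes and that of Mir675 exceeded 21.2%, against a median size of 0.24. With an assumed coefficient of variation of 0.2 between libraries, edgeR's exact test gave Mir483 an adjusted p of 1, and 2 of the 345 detected genes passed. With 1 library on each side, a ratio of the size of Mir483's could hardly pass at that spread. That outcome follows from the setting and is no finding about Mir483.

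By level in both libraries, the detected genes closest to Mir483 were Mirlet7b, Mir203 and Mir16-1. Likeness was the Euclidean distance between log2(CPM + 1) values over the 2 libraries. A close gene must therefore also have a like ratio between them, so the ratios below are descriptions and no separate finding. Mirlet7b, of the let-7 family that rises as tissues differentiate, lay 0.14 away, with 1977 CPM in replicate 1 and 1534 in replicate 2. Mir203, known from skin epithelium, was at distance 0.35, and Mir16-1, known for restraining the cell cycle, at 0.38. Of the 3 only Mirlet7b came close to the drop of Mir483, with a log2 ratio of -0.36 against -0.09 for Mir203 and -0.19 for Mir16-1. Closest to Mir675 were Mir1981 at 0.09, Mir7-1 at 0.11 and Mir329, of the Dlk1-Dio3 locus, at 0.14. Mir1981 had 79.2 CPM in replicate 1 and 79.8 in replicate 2. None of these 3 passed the test between the libraries, which their choice by level in both largely fixed. The hairpins of Mir16-1 and Mir7-1 have 21 bases in common with Mir16-2 and Mir7-2, which makes their counts uncertain.

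Other imprinted loci that carry miRNAs give the setting for the pair. The list held Mir335 of the paternally expressed Mest gene, Mir296 and Mir298 of the Gnas locus, and the large maternally expressed Dlk1-Dio3 cluster. Some listed genes of the cluster, among them Mir136 and Mir409, were not found by symbol among the counted genes, so the set is incomplete. All 3 genes of Mest and Gnas and 42 of the 47 cluster genes that were found were detected. Of these 45 genes, 4 stood above Mir483 in mean CPM and 18 below Mir675.

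Mir335 was far above the pair, with 83348 CPM in replicate 1 and 100914 in replicate 2. The Gnas miRNAs were also above Mir483 in both libraries, Mir296 with 3499 and 4586 CPM and Mir298 with 3915 and 3169 CPM. In the Dlk1-Dio3 cluster Mir411 had 2548 and 3138 CPM, and Mir127, which represses the neighbouring Rtl1 gene, had 1699 and 1769 CPM. Mir411 shares a stretch of 21 bases with Mir758, so its count is uncertain. By mean CPM, Mir483 thus stood between the 2 leading genes of the cluster, and its values in the libraries spanned those of Mir127.

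Between the libraries, Mir483 had a ratio below 0 while the median of these genes lay above it, at 0.20 on the log2 scale beside 0.02 over all detected genes. In the exact binomial test 22 of the 45 passed as higher and 4 as lower in replicate 2, beside shares over all detected genes of 26.7% higher and 27.2% lower. The Dlk1-Dio3 cluster gave 42 of the 45 genes, with 20 of those higher and 3 of those lower. Median and counts thus mostly describe 1 cluster, whose genes are not independent, and not imprinted miRNAs at large. Of the 2 Gnas genes, 1 passed in each direction. In edgeR's exact test with the assumed coefficient of variation of 0.2, 0 of the 45 passed, and 0 had an unadjusted p below 0.05. Over all 345 detected genes, 2 passed and 16 had an unadjusted p below 0.05. Ratios of the size seen in the 45 genes could hardly pass at that setting, so their count of 0 decides nothing. Only Mir543 at -0.58 and Mir667 at -0.50, both of Dlk1-Dio3 and named after their values were seen, had a lower ratio than Mir483. Each member was set against 5 of these genes, 10 pairs in all, with Fisher's exact test on the counts and Benjamini-Hochberg adjustment over the 10. The ratio of Mir483 was 0.74 lower on the log2 scale than that of Mir335 (adjusted p = 3.65e-228 in the exact test), and 0.16 lower than that of Mir298 (adjusted p = 2.54e-08). It was also lower than those of Mir296, Mir411 and Mir127. Mir675 was lower than Mir335 by 0.36 (adjusted p = 0.00119, exact test), and lower than Mir296 and Mir411, but not past the threshold against Mir127 (adjusted p = 0.206, exact test) or Mir298 (adjusted p = 0.0530, exact test). These tests too know counting error alone.

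**Figure D4:**
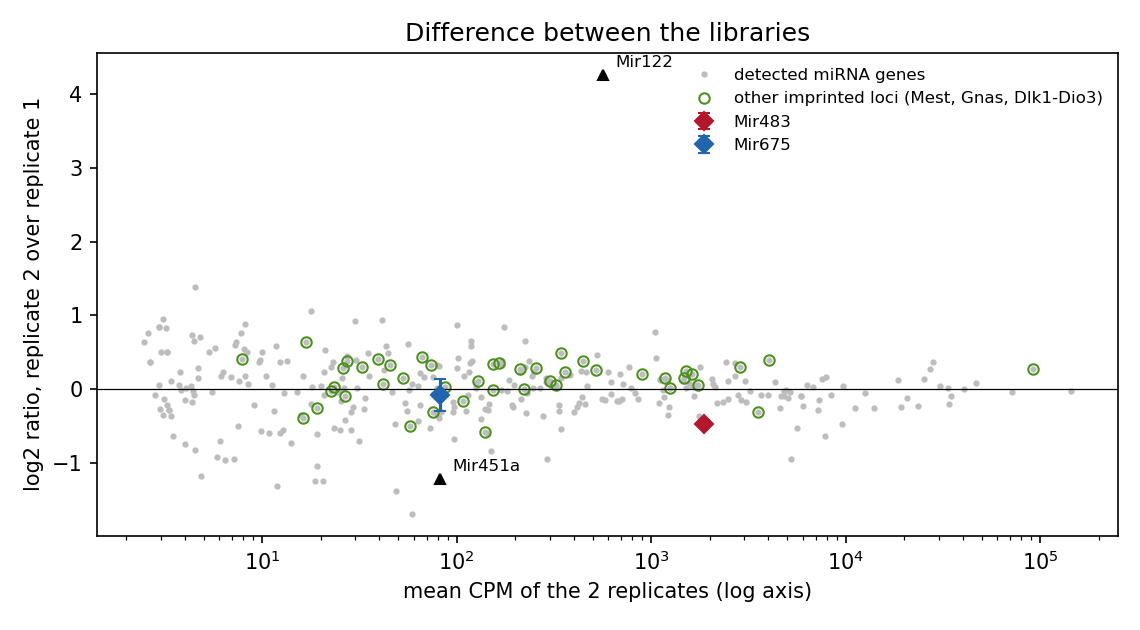
Log2 ratio of replicate 2 over replicate 1 against mean CPM (log axis) for the 345 detected genes (grey), with other imprinted genes as open circles, Mir122 and Mir451a as triangles, and 95% exact intervals for Mir483 and Mir675. Mir483 lies at -0.46, with 2 of the 45 other imprinted genes lower, and Mir675 at -0.08.

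Markers of the tissue and of other cells were read beside these values. MiRNAs of the Hox clusters, which mark the posterior body, and the miR-200 family of epithelium were detected in full, 6 of 6 and 5 of 5 genes, at 251971 ± 1566 and 25144 ± 2342 CPM in sum (SD, n = 2). Of the list for kidney tubules 3 of 4 were detected, at 353 and 490 CPM in sum. Mir122, the main miRNA of hepatocytes, cells in which Igf2 is also active before birth, had 56.3 CPM in replicate 1 and 1074 in replicate 2, the opposite order to Mir483. The erythroid miRNAs Mir451a, Mir144 and Mir486, all detected, summed to 161 CPM in replicate 1 and 77.6 in replicate 2, the same order as Mir483. That order was shared by the miR-200 family in sum, with 26799.5 CPM in replicate 1 and 23487.9 in replicate 2, and by Mir206. The kidney tubule and Hox cluster sums had the opposite order, the Hox sum with 250863 CPM in replicate 1 and 253078 in replicate 2. Their members were divided, so neither list had a single order. In the exact binomial test 2 Hox genes passed as higher and 3 as lower in replicate 2. Of the tubule genes 2 passed as higher and 1, Mir204, as lower, beside 26.7% higher and 27.2% lower of all detected genes. Of the skeletal muscle list, a tissue with high H19, only Mir206 of 5 genes was detected, with 72.3 CPM and 53.5 CPM, and of the neural list none of 5. Mir1a-1, Mir133a-1, Mir133a-2 and all 3 Mir124a genes had no count, and reads of such multi-copy genes can be lost as mapping to several places. The part of other cells, and of the greater depth of replicate 1, in the levels of Mir483 and Mir675 was not tested. In whole tissue, fewer cells of a type and less miRNA per cell cannot be told apart.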

How the data were processed

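Libraries held RNA under 30 nucleotides, per the labels. Per the deposited file descriptions, reads were aligned to mm10 and counted on GENCODE M4, with aligner and counter not given in the sources used here. The authors deposited raw counts per miRNA gene for each library, and counts on the gene's own strand were used. The 4 tally rows that name no gene were left out of totals; reads mapping to several places were 28.3% and 27.5% of 10450326 and 6765908 reads. Symbols and positions came from GENCODE M21 (1894 of 1973 identifiers matched), sequences from RefSeq's GRCm38.p6 table, and folds from RNAfold 2.7.2.

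With 1 group there was no contrast of conditions. Libraries were compared by an exact binomial test on totals scaled by TMM (edgeR 4.0.16, R 4.3.3), and ratios by Fisher's exact test (scipy 1.17.1). The binomial test was also run on simulated counts that held counting error only. That run cannot show how the test behaves where libraries differ by more than counting error, as these did. Genes were named by rule: both members, the 3 nearest to each, the 2 most abundant detected per imprinted locus, and all hepatocyte and erythroid markers. Members and lists were chosen with earlier results of these data known. Alternatives were both-strand counts, other totals, pseudocounts, count minimums, DESeq2 1.42.0 size factors, edgeR's exact test and single libraries.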

Additional observations from a re-analysis of the deposited data

How the results depend on the processing

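Mir675 stood at 95.8 CPM when the most abundant gene was taken out of the total, and at 42.7 per 1000000 when all reads of the library, tallies included, were the total. On the latter scale Mir483 stood at 969 per 1000000, and Mir675 was slightly higher in replicate 2 (43.3 against 42.0). Single libraries gave 79.5 to 84.4 CPM for Mir675, 1571 to 2173 CPM for Mir483 and 4.30 to 4.69 for the log2 ratio of Mir483 to Mir675. With both strands, pseudocounts of 1 or 10 CPM, or counts per base of hairpin (chosen after seeing the data), that ratio moved by less than its SD. The log2 ratio of replicate 2 over replicate 1 for Mir483 was -0.46 in edgeR's exact test with an assumed coefficient of variation of 0.2 and again with the one estimated from these libraries, 0.199, and its adjusted p was 1 in each, against 2.59e-98 to 4.32e-89 in the exact binomial test under other scalings, strands and count minimums. In the main comparison 186 of the 345 detected genes passed the exact binomial test (adjusted p below 0.05). Of these, 11 also met the log2 threshold of 1 in either direction. With a minimum of 1 count in either library, 15 of 716 tested genes met both conditions. With a minimum of 50 counts in each library, 5 of 266 did. In either form of edgeR's exact test 2 of the 345 did, and 16 had an unadjusted p below 0.05. The coefficient of variation of 0.199 was estimated with the 2 libraries as 1 group, so their own differences set it. A gene of typical difference could therefore hardly pass, and that form of the test is no independent check. The assumed value of 0.2 is nearly the same, so such a gene could hardly pass in that form either. The comparison of libraries has no value with 1 library left out. No paired analysis was possible because there was 1 group. With 293 to 439 counts, depth limits Mir675 more than Mir483.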

Other observations

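Detected miRNA genes were grouped by where they lie in a host gene of their strand. The median was 81.1 CPM for the 67 inside an annotated exon, 110 CPM for the 167 inside an intron and 128 CPM for the 111 with no host. Mir675, in an exon, ranked 33 of 67 in its class, and Mir483, in an intron, ranked 32 of 167. These are descriptions of these libraries, with no test.

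The single other arm in the table that shares bases 2 to 7 with either member was miR-3110-3p, with miR-483-3p. Its gene Mir3110 had 5 counts in replicate 1 and 2 in replicate 2 and was not detected.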
